A study of Homo sapiens with 6 samples.

Results

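CDK4 was followed together with 9 genes that lie near it on the long arm of human chromosome 12, in bands 12q13-q14: TSPAN31, OS9, GLI1, B4GALNT1, AGAP2, METTL1, TSFM, AVIL and CYP27B1. The 10 genes were chosen by name, for their place in a region known to be amplified in the Rh30 cell line. They were not picked by a value in these data, but earlier results of these data were known when they were chosen. They are 10 of the 35580 genes to which the deposited transcripts could be joined, and all 10 had enough counts to be among the 15204 genes tested. Messenger RNA was sequenced from Rh30, a cell line of alveolar rhabdomyosarcoma, a childhood muscle-lineage tumour, which is positive for the PAX3-FOXO1 gene fusion. Cells labelled siDDX5, in which the RNA helicase gene DDX5 was knocked down, were set against cells labelled as the knockdown control, with 3 libraries in each group. All 6 libraries therefore share the cell line and its fusion, and the labels used here give no siRNA sequence, dose or time. The replicates are described as biological, but they come from 1 line, so the p-values measure the spread between these libraries only. Copy number was not measured here.

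Gene amplification places extra copies of a chromosome segment in a tumour cell, and genes carried on the segment are often transcribed at high levels together with the gene that gives the cell an advantage. In sarcomas and glioblastomas the segment around CDK4 is a recurrent one. CDK4 joins a D-type cyclin to phosphorylate the retinoblastoma protein and release E2F factors at the start of the cell cycle. Its neighbours have unrelated jobs: a transcription factor of Hedgehog signalling (GLI1), a lectin of endoplasmic reticulum quality control (OS9), a tetraspanin (TSPAN31), a ganglioside-synthesising enzyme (B4GALNT1), a GTPase-activating protein of PI3-kinase signalling (AGAP2), a tRNA methyltransferase (METTL1), a mitochondrial translation elongation factor (TSFM), an actin-binding protein (AVIL) and the enzyme that activates vitamin D (CYP27B1).

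The control libraries held 21265569 to 26156858 estimated counts and the siDDX5 libraries 18202402 to 19971888, so that every siDDX5 library was the shallower. A count of 3 corresponded to 0.115 to 0.165 CPM, the unit of counts scaled to a common library total. DDX5 itself was at 1661, 1686 and 1340 TPM, a level per transcript length scaled to a common total, in the control and 794.6, 519.8 and 450.2 TPM in the siDDX5 libraries, a log2 fold change of -1.44 with an SE of 0.15 (by edgeR, adjusted p = 0.0115). All 8 rhabdomyosarcoma markers (MYOD1, MYOG, DES, PAX3, FGFR4, MYCN, CDH15 and CHRNA1) were present, with a summed level of 1180 to 1500 TPM in the control and 1135 to 1199 TPM in the siDDX5 libraries. The summed level of 6 epithelial markers was 2.97 to 4.71 TPM over the 6 libraries, that of 6 blood markers 12.5 to 21.0 TPM and that of 4 endothelial markers 4.55 to 7.27 TPM. The summed level of 8 fibroblast markers was 115.1 to 147.8 TPM.

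Promoter sequence from RefSeq (GRCh38.p14) was matched for 6 of the 10 genes, CDK4, TSPAN31, OS9, AGAP2, TSFM and AVIL. GLI1, B4GALNT1, METTL1 and CYP27B1 are named only. The windows are the 250 bases before the RefSeq start, and GENCODE starts can differ from it. The CDK4 window, chr12:57752311-57752560, lies with 211 of its bases inside the first exon of ENST00000257904, the most abundant CDK4 transcript in these tables, which starts at 57752521, and it is not printed. The outermost GENCODE start of CDK4, from which distances are given here, is at 57756013. Sequence is printed only up to the first GENCODE exon of the same gene, for OS9, which followed CDK4 in abundance, for AVIL, the last of the 10 along the chromosome, and for CTDSP2, the gene next to it, whose level fell. Each is written 5′ to 3′ on the strand of its gene. Capitals mark the motifs searched on both strands: the E-box CACGTG, the CCAAT box, whose letters read ATTGG on the other strand, the GC box GGGCGG, which reads CCGCCC there, and the TATA box TATAAA. No marked matches share a base.
OS9, chr12:57693882-57693954, plus strand: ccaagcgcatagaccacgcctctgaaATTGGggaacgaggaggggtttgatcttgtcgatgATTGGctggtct
AVIL, chr12:57818735-57818984, minus strand: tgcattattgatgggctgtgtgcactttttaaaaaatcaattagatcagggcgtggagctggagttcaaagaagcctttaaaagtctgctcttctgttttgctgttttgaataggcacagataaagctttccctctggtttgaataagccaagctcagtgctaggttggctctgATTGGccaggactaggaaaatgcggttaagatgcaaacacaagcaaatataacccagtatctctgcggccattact
CTDSP2, chr12:57846740-57846979, minus strand: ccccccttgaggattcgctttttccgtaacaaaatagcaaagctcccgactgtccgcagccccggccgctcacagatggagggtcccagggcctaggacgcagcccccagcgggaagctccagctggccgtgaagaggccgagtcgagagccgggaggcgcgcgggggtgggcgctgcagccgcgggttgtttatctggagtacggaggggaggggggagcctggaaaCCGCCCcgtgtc

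The whole CDK4 window of 250 bases held 3 E-boxes and 3 GC boxes, and no CCAAT or TATA box. The E-boxes began 216, 196 and 101 bases before the RefSeq start, and the GC boxes 175, 127 and 73. The nearest 211 bases lie in the first exon of ENST00000257904. All matches but the outermost E-box therefore lay inside that exon, and that E-box reached into it. Of 35116 promoter windows of the same length in the table, 6.34% held the E-box letters and 42.6% the GC box letters at least once. The whole OS9 window held 4 CCAAT boxes and 1 GC box, and 32.0% of all windows held a CCAAT box. The AVIL window held 1 CCAAT box and the CTDSP2 window 1 GC box. The TATA box letters, present in 10.7% of all windows, were in none of these 4 windows. That of TSPAN31 held 3 CCAAT boxes and that of TSFM none of the 4 motifs. Annotated exons of the same gene covered 177 bases of the OS9 window and 158 of the TSPAN31 window. The GC content was 65.6% for CDK4, 53.2% for OS9, 42.4% for AVIL and 66.8% for CTDSP2, beside a median of 58.0% over all windows. A match to these letters is a description of the sequence and not a measured binding site.

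CDK4 was among the most abundant transcripts of these cells. Its level was 11651, 11382 and 9319 TPM in control replicates 1, 2 and 3, and 11588, 12315 and 9930 TPM in siDDX5 replicates 1, 2 and 3. Both groups spanned almost the same range. By mean TPM it ranked 6 among all 35580 genes, and in single libraries between 5 and 7. OS9 followed at 3401 ± 482.3 TPM (SD, n = 3) in the control and 3072 ± 258.7 TPM in the siDDX5 libraries, rank 30. TSFM, TSPAN31 and METTL1 formed a middle group, with means over the 6 libraries of 916.9, 877.8 and 619.3 TPM and ranks 122, 128 and 186. TSFM and TSPAN31, neighbours in this order, had overlapping ranges of 795.1 to 1019 and 767.2 to 1018 TPM.

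AVIL, CYP27B1 and GLI1 came next, at 328.8, 217.5 and 188.6 TPM, and the ranges of CYP27B1 (190.6 to 274.0 TPM) and GLI1 (66.6 to 261.8 TPM) overlapped. AGAP2 and B4GALNT1 were the lowest and did not differ beyond their spread, at 51.2 to 84.3 and 38.2 to 82.7 TPM. The 10 genes therefore spanned levels from 60.9 to 11031 TPM on average. The median of the 10 was 474 TPM, beside 6.53 TPM over all 19948 protein-coding genes. A mean of at least 100 TPM was reached by 8 of the 10 (80%) and by 8.1% of all protein-coding genes, and at least 500 TPM by 5 of the 10 (50%) and 1.1% of all. The 10 genes made up 1.56% to 1.87% of the whole TPM of a library. These levels, and those of all genes, add up every annotated transcript of a gene. On transcripts annotated as protein coding alone, the means were 2.97 TPM for CYP27B1, 49.2 for AVIL and 83.4 for GLI1. They were 327.4 TPM for TSPAN31, 361.5 for METTL1, 874.8 for TSFM, 2258 for OS9 and 9363 for CDK4. Bulk values do not tell whether more cells or more RNA per cell lay behind a level, and the 2 cannot be told apart here.

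**Figure D1:**
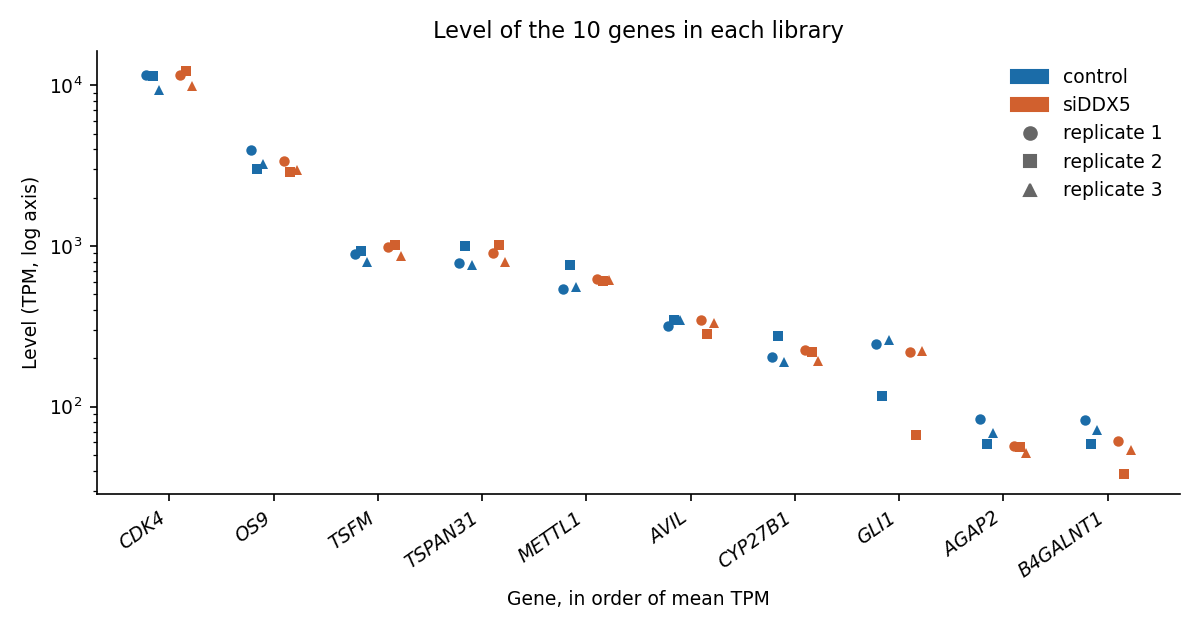
Level of each of the 10 genes in TPM on a log axis, with 1 point per library, colours for the group and shapes for the replicate number. CDK4 sits between 9319 and 12315 TPM in all 6 libraries, and GLI1 has its 2 lowest points, 116.6 and 66.6 TPM, in the replicate 2 libraries.

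Along the chromosome the 10 genes span 358.6 kb, chr12:57460135-57818704 in GRCh38 coordinates, from GLI1 to AVIL. CDK4 lies at chr12:57747727-57756013 on the minus strand. TSPAN31 (chr12:57738013-57750211, plus strand) overlaps its end. AGAP2 (chr12:57723761-57742157, minus strand) overlaps the start of TSPAN31, and OS9 (chr12:57693955-57721557, plus strand) comes before AGAP2. CYP27B1 (chr12:57762334-57768986, minus strand), METTL1 (chr12:57768471-57772793, minus strand), TSFM (chr12:57782589-57808071, plus strand) and AVIL (chr12:57797376-57818704, minus strand) lie beyond CDK4. B4GALNT1 (chr12:57623410-57633355, minus strand) and GLI1 (chr12:57460135-57472262, plus strand) lie farther from CDK4, before OS9.

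A high level was common but not general in this interval. Of the 14 other protein-coding genes between GLI1 and AVIL, 8 had a mean of at least 100 TPM (57.1%). The 5 most abundant of them were MARS, a methionyl-tRNA synthetase (1263 TPM), DDIT3, the stress-response factor CHOP (593.5 TPM), MARCH9, a ubiquitin ligase (567.0 TPM), EEF1AKMT3, a lysine methyltransferase of elongation factor eEF1A (241.0 TPM), and MBD6, a methyl-CpG-binding domain protein (210.0 TPM). KIF5A, a neuronal kinesin that lies between GLI1 and B4GALNT1, was at 0.317 TPM, and AC022506.1 was listed at 0 in every library. KIF5A and AC022506.1 are named after their values were seen. In the 1 Mb before GLI1, 6 of 30 protein-coding genes (20.0%) reached 100 TPM. In the 1 Mb after AVIL both protein-coding genes did, CTDSP2 at 817.7 TPM and ATP23, a mitochondrial protease, at 242.2 TPM. In the rest of chromosome 12 116 of 980 did (11.8%). High levels did not stop at GLI1: in the 1 Mb before it, 4 of the 30 genes (13.3%) reached 500 TPM, beside 1.1% of all protein-coding genes. STAC3 (3031 TPM) and SHMT2 (2338 TPM) were among these, and both are named after their values were seen. When chromosome 12 was cut into 132 windows of 1 Mb, the window with CDK4 had the highest summed level, 28390 TPM, of which CDK4 gave 38.9%. STAC3 and SHMT2 also lie in that window. The next window on the chromosome had 9401 TPM, and over the genome the CDK4 window ranked 2 of 2877.

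**Figure D2:**
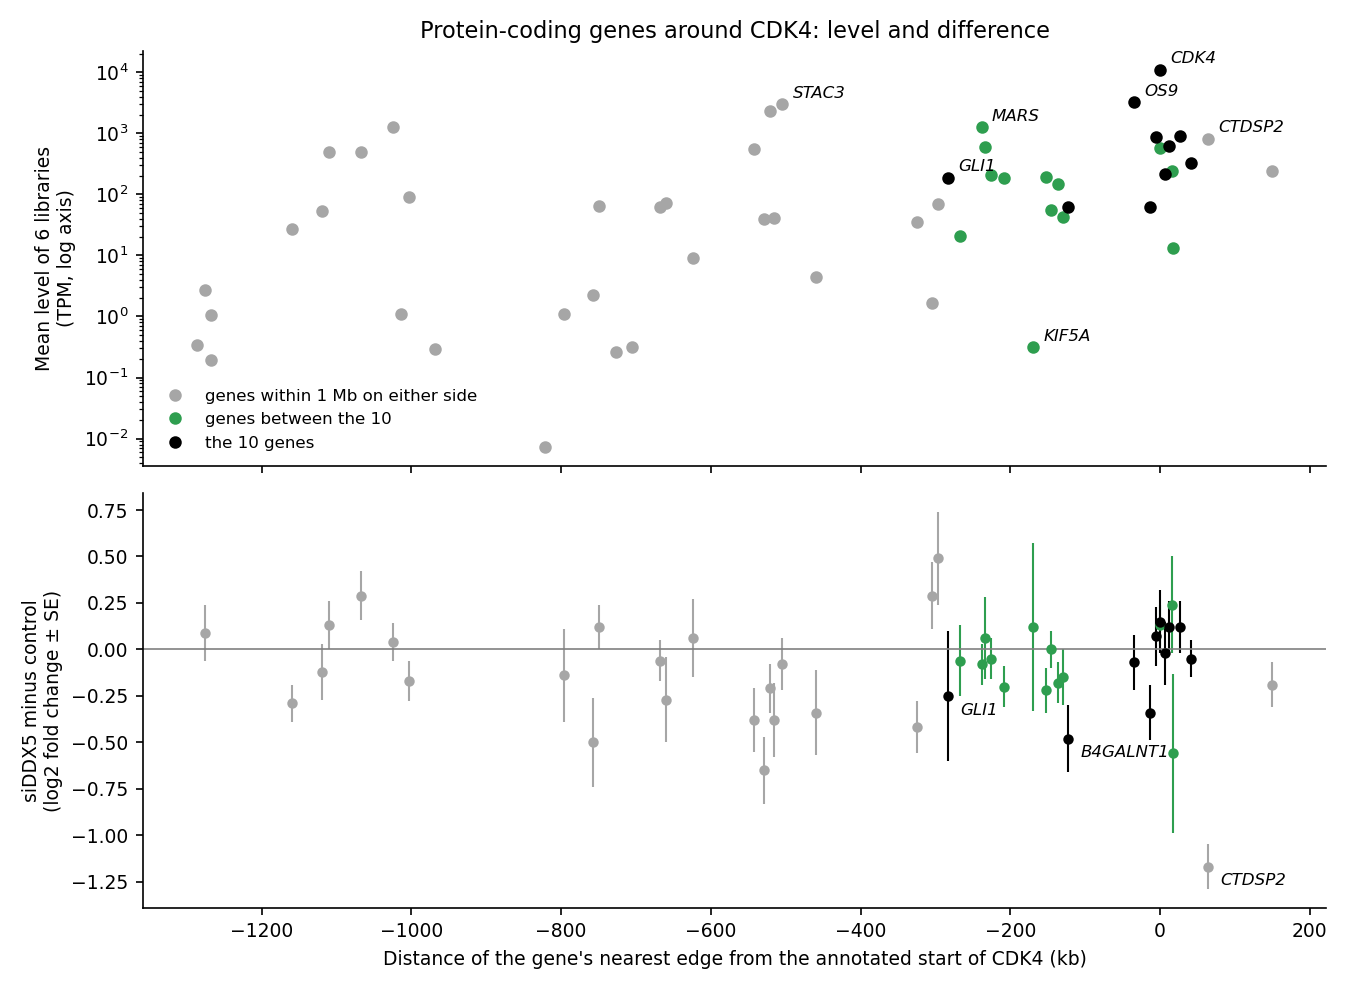
Mean level (upper panel, TPM on a log axis) and difference between groups (lower panel, log2 fold change ± SE) of the protein-coding genes around CDK4, by distance in kb from its annotated start. Genes listed at 0 are left out above, and genes not tested are left out below. The 10 genes stay within 0.48 of 0 on the log2 scale, while CTDSP2, just beyond AVIL, stands at -1.17.

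None of the 10 genes was called changed after DDX5 knockdown, at an edgeR quasi-likelihood adjusted p under 0.05. Over all 15204 genes tested, 26 were called (0.171%), of which 18 fell and 8 rose. An unadjusted p under 0.05 was found for 1 of the 10, close to the share of 11.3% of all genes. By TMM-normalised CPM, the 3 control and 3 siDDX5 values were separate for 0 of the 10 genes and for 18% of all genes. The median log2 fold change of the 10 was -0.03, with 4 above and 6 below 0, and the median of all genes was -0.002. Same-numbered libraries deviated together, and blocking the fit on the replicate number called 377 genes (2.48%), 213 of them lower (1.4%). It called 1 of the 10 genes, B4GALNT1, which was lower. Without control replicate 1, or without siDDX5 replicate 1, 0 genes were called in all (1242 and 2036 genes at an unadjusted p under 0.05 in edgeR), so the calls of DDX5, CTDSP2, TRMT112 and HMGA2 given here were lost.

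CDK4 was at 9035, 8441 and 7698 CPM in the control, against 7984, 11598 and 8417 in the siDDX5 libraries. The ranges overlapped, and siDDX5 replicate 2 was the highest library by a wide margin. The log2 fold change came to 0.15 with an SE of 0.17 (by edgeR, adjusted p = 0.776). Without siDDX5 replicate 2 it was -0.03, so the direction rested on that library. TSPAN31, which encodes a membrane protein of the tetraspanin family, was at 743.5, 981.7 and 705.8 CPM in the control, against 803.3, 1018 and 735.0 in the siDDX5 libraries. Its replicate 2 library was the highest of each group, and the log2 fold change came to 0.07 with an SE of 0.16 (adjusted p = 0.904), or -0.08 without siDDX5 replicate 2.

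CDK4 and TSPAN31 run in opposite directions and share 1369 exon bases, 43.2% of the exon bases of CDK4 and 25.4% of those of TSPAN31. The library kit marks the strand, but whether the quantifier used it is not given in the sources used here. Reads from the shared stretch may therefore have been divided between the 2 genes. The same caution holds for METTL1, which shares 506 bases (19.3% of its exon bases) with EEF1AKMT3 on the other strand, for TSFM and AVIL with 303 shared bases, and for B4GALNT1 with 2136 bases (26.7%) shared with SLC26A10. TSPAN31 and AGAP2 share 189 bases, also on opposite strands. OS9 shares 699 bases with the antisense gene AC025165.2, and AGAP2 866 with AGAP2-AS1. Neither antisense gene was analysed here. On the same strand, TSFM shares 578 bases (18.7% of its exon bases) with AC025165.3, and METTL1 shares 107 bases with CYP27B1. The strand of a read cannot tell these pairs apart.

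B4GALNT1 had the largest difference of the 10. It encodes the transferase that adds N-acetylgalactosamine to make the gangliosides GM2 and GD2. Its level was 290.3, 192.8 and 213.3 CPM in the control, against 199.2, 138.8 and 161.8 in the siDDX5 libraries. Control replicate 2 was below siDDX5 replicate 1, so the groups overlapped by that pair. In each replicate number the siDDX5 library was the lower. The log2 fold change came to -0.48 with an SE of 0.18 (by edgeR, adjusted p = 0.351), and with the replicate block it was -0.47 (SE 0.09, adjusted p = 0.0274). The call thus held only with the block. The estimate ranged from -0.63 to -0.28 when single libraries were left out.

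AGAP2, a GTPase-activating protein for ARF proteins that also binds PI3-kinase and AKT, showed the next largest difference. It was at 284.1, 192.6 and 216.8 CPM in the control, against 178.2, 205.2 and 163.2 in the siDDX5 libraries. Control replicate 1 stood above the others, and siDDX5 replicate 2 lay above control replicate 2. The log2 fold change came to -0.34 with an SE of 0.15 (by edgeR, adjusted p = 0.448). On the TPM scale, at 84.3, 58.3 and 68.2 against 56.8, 56.4 and 51.2, the groups did not overlap, but the closest values were 58.3 and 56.8. By limma-trend on log2(TPM + 1) the adjusted p of AGAP2 was 0.58. The share of all genes whose groups are separate by TPM was not counted.

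GLI1, the transcriptional effector and target of Hedgehog signalling, varied more between replicate numbers than between groups. Its control values were 228.7, 98.3 and 227.6 CPM, and its siDDX5 values 181.2, 86.5 and 199.4 CPM. The replicate 2 libraries were the lowest of each group, below every library of the other replicate numbers. The log2 fold change came to -0.25 with an SE of 0.35 (by edgeR, adjusted p = 0.836). With the replicate block it was -0.24 (SE 0.09, adjusted p = 0.168), and without siDDX5 replicate 2 it was 0.04. PTCH1, the Hedgehog receptor and itself a target of GLI1, had its lowest values in the same libraries, with 120.1, 67.3 and 132.2 CPM in the control, against 106.3, 54.3 and 113.0 in the siDDX5 libraries. Replicate 2 was the lowest of both groups for 16.8% of all genes. Other Hedgehog genes went either way: HHIP was also lowest in replicate 2 of both groups, and GAS1 was highest there. PTCH1, HHIP and GAS1 are named after their values were seen. What separated the replicate 2 libraries is not in the labels and was not tested.

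**Figure D3:**
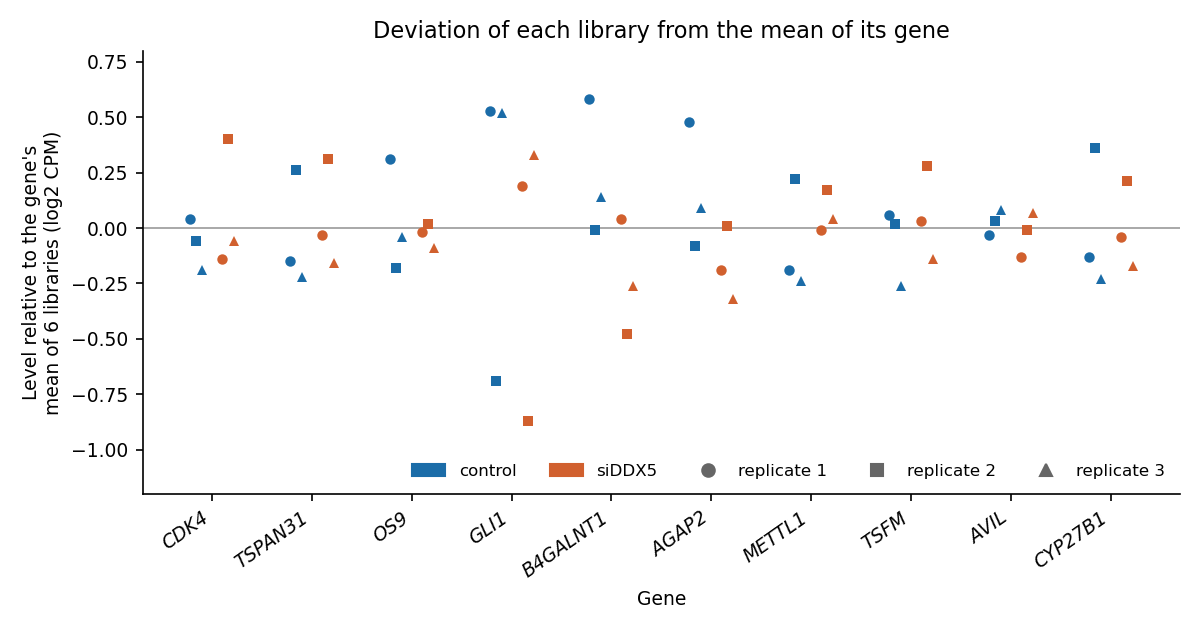
Level of the 10 genes in each library relative to the mean of the gene over the 6 libraries, in log2 CPM, with colours for the group and shapes for the replicate number. GLI1 has the widest spread, from -0.87 to 0.53, with both replicate 2 libraries at the bottom, and AVIL the narrowest, from -0.13 to 0.08.

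Replicate 2 was not lower throughout. For TSPAN31, METTL1 and CYP27B1 it gave the highest library of both groups, a pattern that 15.3% of all genes had. For GLI1 and B4GALNT1 it gave the lowest of both groups, which was so for 16.8% of all genes. METTL1, which places 7-methylguanosine on tRNA together with WDR4, was at 353.2, 469.0 and 342.1 CPM in the control, against 400.0, 454.5 and 414.9 in the siDDX5 libraries. The siDDX5 values lay inside the control range, and the log2 fold change came to 0.12 with an SE of 0.14 (by edgeR, adjusted p = 0.777). CYP27B1 was at 214.7, 301.1 and 199.3 CPM and 227.7, 270.3 and 207.9 CPM, again with the siDDX5 values inside the control range. Its log2 fold change came to -0.02 with an SE of 0.17 (adjusted p = 0.982).

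OS9 was at 5698, 4077 and 4487 CPM in the control, against 4539, 4688 and 4339 in the siDDX5 libraries. The siDDX5 values were close together, inside a wider control range that control replicate 1 topped. The log2 fold change came to -0.07 with an SE of 0.15 (by edgeR, adjusted p = 0.892), and 0.08 without control replicate 1. TSFM, which recycles the mitochondrial elongation factor EF-Tu, was at 479.4, 466.0 and 384.0 CPM in the control, against 469.3, 558.6 and 416.5 in the siDDX5 libraries, a log2 fold change of 0.12 with an SE of 0.14 (adjusted p = 0.792). AVIL, a member of the gelsolin and villin family, had the least spread, with 269.7, 280.8 and 291.0 CPM against 251.0, 272.8 and 290.0 CPM. Its groups overlapped over most of their range, and the log2 fold change came to -0.05 with an SE of 0.10 (adjusted p = 0.896).

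Of the genes lying between the 10, 13 protein-coding ones were tested, and 0 were called by edgeR, none of them at an unadjusted p under 0.05 either. MARS had a log2 fold change of -0.08 (SE 0.11), DDIT3 0.06 (SE 0.22), MARCH9 0.13 (SE 0.11), EEF1AKMT3 0.24 (SE 0.26) and MBD6 -0.05 (SE 0.11). Within 1 Mb on either side, 1 gene was called, CTDSP2. It encodes a small phosphatase of the RNA polymerase II C-terminal domain and its near edge lies 63.9 kb from the annotated start of CDK4. Its level was 1239, 1038 and 1040 TPM in the control and 629.7, 433.9 and 524.8 TPM in the siDDX5 libraries. Every siDDX5 library lay far below every control library, with a log2 fold change of -1.17 with an SE of 0.12 (by edgeR, adjusted p = 0.0115). On the other side, the nearest gene above 1 TPM was INHBE, an inhibin beta subunit, with a log2 fold change of 0.49 with an SE of 0.25 (adjusted p = 0.491). With the replicate block INHBE was at 0.47 and was called (adjusted p = 0.0276), as was R3HDM2, at -0.43 (adjusted p = 0.0373, and 0.315 without the block). R3HDM2 is named after its values were seen.

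The profile of CDK4 over the 6 libraries was compared with that of 9784 genes of at least 10 CPM, by the root mean square difference in log2 CPM after each gene's own mean was subtracted. The nearest were KDELR1 (0.0354), a receptor that returns proteins to the endoplasmic reticulum, VPS28 (0.0383), an ESCRT-I subunit, POLR2G (0.0411), a subunit of RNA polymerase II, SDHB (0.0416), a subunit of succinate dehydrogenase, and PHB (0.042), prohibitin. None of these lies on chromosome 12, and like CDK4 they were highest in siDDX5 replicate 2. Among the other 9 genes, TSFM was the nearest to CDK4 (0.1, rank 328) and GLI1 the farthest (0.711, rank 9720). TSPAN31, whose exons overlap those of CDK4, stood at 0.165 (rank 1961). These distances over 6 libraries are a description only.

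The annotated transcripts behind these totals differed widely between the 10 genes. The tables hold 115 of their transcripts, grouped here by the class in the annotation: protein coding, retained intron (a spliced transcript that keeps an intron), nonsense-mediated decay, and other. For CDK4, between 88.0% and 92.4% of its estimated counts were on protein-coding transcripts, and the 1865-base transcript ENST00000257904.11 alone held 72.4% to 80.4%. That transcript was at 5026 to 5451 TPM in the control and 4938 to 6775 TPM in the siDDX5 libraries. Short transcripts weigh more in TPM: the 228-base ENST00000547853.1 held 0.138% to 0.385% of the CDK4 counts and was at 387.9 to 1103 TPM. AGAP2 had coding transcripts only, and TSFM had 96.0% to 98.0% of its counts on them. CYP27B1 was the opposite, with 97.4% to 99.8% on retained-intron transcripts, most of it on the 2474-base ENST00000547344.5. The coding transcripts of CYP27B1 were at only 0.972 to 4.6 TPM, beside 190.6 to 274.0 TPM for the gene as a whole.

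AVIL and TSPAN31 also had more counts on retained-intron than on coding transcripts, so that 3 of the 10 genes did. Over 5702 genes with such counts, the median share was 8.92%, and 9.61% of genes had more than 1 count in 2 there. For AVIL the coding transcripts were at 28.7 to 59.0 TPM, of 284.9 to 348.2 TPM in all. For GLI1 the retained-intron transcripts held 7.65% to 10.3% of the counts but 53.1% to 59.1% of the TPM, because they are short and TPM is per length. Its coding transcripts alone were at 30.9 to 115.0 TPM. For TSPAN31 the retained-intron transcripts held 55.9% to 61.1% of the TPM, and its coding transcripts were at 270.0 to 404.1 TPM. Most of the gene-level TPM of CYP27B1, AVIL, TSPAN31 and GLI1 therefore came from transcripts that are not annotated as coding. Coding transcripts held 53.0% to 67.1% of the TPM of METTL1 and 63.5% to 77.7% of that of OS9.

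The retained-intron share of AVIL was 78.8%, 77.6% and 80.1% in the control and 70.3%, 71.4% and 72.3% in the siDDX5 libraries. The groups were separate by more than 5 percentage points, although the level of these transcripts, 236.0 to 268.9 TPM in the control and 207.9 to 244.6 TPM in the siDDX5 libraries, overlapped. For B4GALNT1 the share was 13.2% ± 1.26 (SD, n = 3) in the control and 9.31% ± 2.08 in the siDDX5 libraries, and for METTL1 8.8% ± 0.926 and 6.25% ± 0.941, again without overlap. For TSPAN31 it was higher in the siDDX5 libraries, 64.1% ± 1.58 against 61.4% ± 0.75, and the closest values of the groups were 62.3% and 62.1%. Of the 8 genes with such counts, 3 thus had a separate lower share, beside 10.8% of all genes with such counts, and 1 a separate higher share, beside 2.81%. These shares were not tested. The siDDX5 libraries were also the shallower ones, and the part of depth in the shares was not tested.

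**Figure D4:**
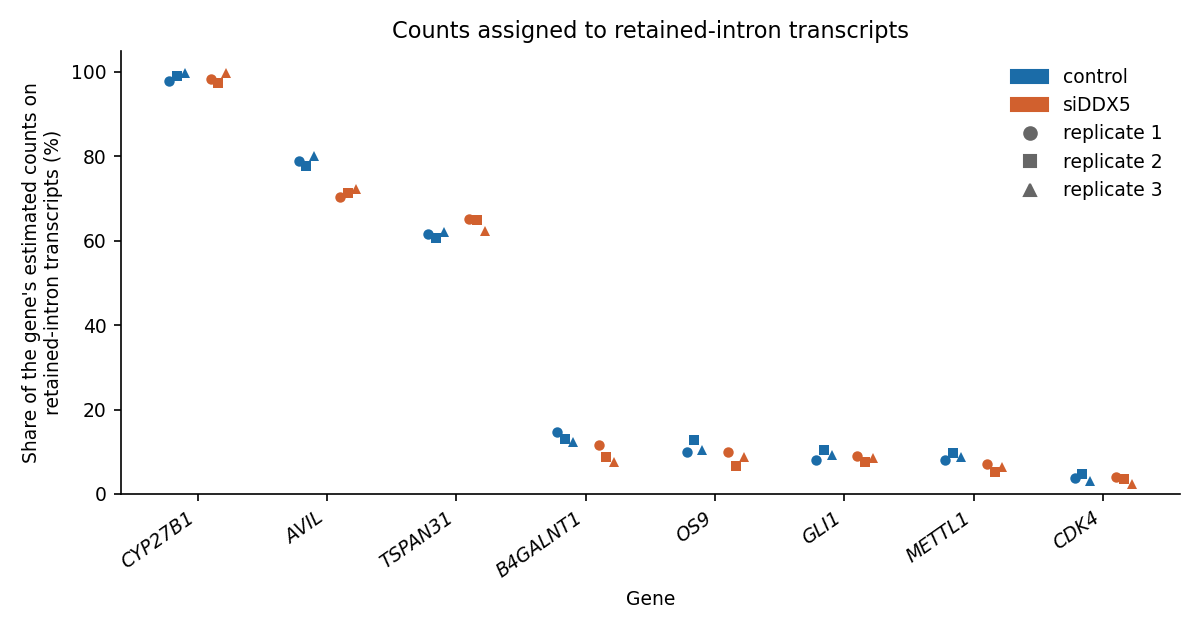
Share of the estimated counts of each gene on transcripts annotated as retained intron, in percent, with 1 point per library. The points fall at separate heights: CYP27B1 above 97.4%, AVIL and TSPAN31 between 60.6% and 80.1%, and the other 5 genes at or below 14.6%.

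No single transcript of the 10 genes was called. Of 92 transcripts tested, 0 had an edgeR adjusted p under 0.05, as did 0% of all 60811 transcripts tested. At an unadjusted p under 0.05 there were 13 of the 92, beside 7.11% of all. In a test of the relative use of the transcripts of a gene (diffSpliceDGE), 0 of the 10 genes were called, beside 1.58% of 10688 genes, and 1 of the 10 had an unadjusted p under 0.05, beside 5.41% of all. OS9 was the nearest to a call in that test, with an adjusted p of 0.417, and it held the transcript with the smallest p of all 92.

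That OS9 transcript, ENST00000389142.9, took 4.68%, 5.77% and 4.65% of the OS9 counts in the control and 9.54%, 11.8% and 9.44% in the siDDX5 libraries. The groups were well apart, and the log2 fold change came to 1.02 with an SE of 0.16 (by edgeR, adjusted p = 0.262). Without siDDX5 replicate 1 the transcript use of OS9 was called (adjusted p = 0.00062), in a fit that called 445 genes in place of 169. Without any other single library its adjusted p was 0.323 to 0.931. The most abundant OS9 transcript, ENST00000315970.12, differed the other way, with 37.4%, 33.5% and 38.1% in the control against 26.8%, 32.4% and 32.0%. In the annotation these transcripts differ in their outer ends and elsewhere. Among the differences, ENST00000389142 lacks the last 45 bases of exon 11 and skips exon 13. Exon 13 has 165 bases, all of them coding and a multiple of 3, so that its skipping keeps the reading frame.

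The exon is printed because these transcripts, with and without it, differed in opposite directions. It was chosen after the values were seen, and its sequence is that of GENCODE release 29, with no letters marked.
OS9 exon 13, chr12:57720099-57720263, plus strand: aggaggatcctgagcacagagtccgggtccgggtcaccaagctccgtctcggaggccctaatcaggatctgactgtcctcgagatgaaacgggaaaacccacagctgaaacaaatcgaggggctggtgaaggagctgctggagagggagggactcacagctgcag

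Among the coding OS9 transcripts that span it, 2 contain this exon and 7 skip it. Those with the exon held 61.4%, 59.1% and 63.8% of the counts of these transcripts in the control and 52.4%, 49.7% and 56.1% in the siDDX5 libraries. The means were 61.4% ± 2.36 and 52.8% ± 3.23 (SD, n = 3), and every siDDX5 library was below every control library. The share includes the transcripts whose values led to the choice of the exon, so this separation follows in part from that choice. How many exons of all genes separate in this way was not counted. Not all transcripts followed: ENST00000389146.10, which contains the exon, and ENST00000257966.12, which skips it, had overlapping shares. The share was not tested, and the division of reads among transcripts that share most of their exons carries an error that the tables do not give.

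**Figure D5:**
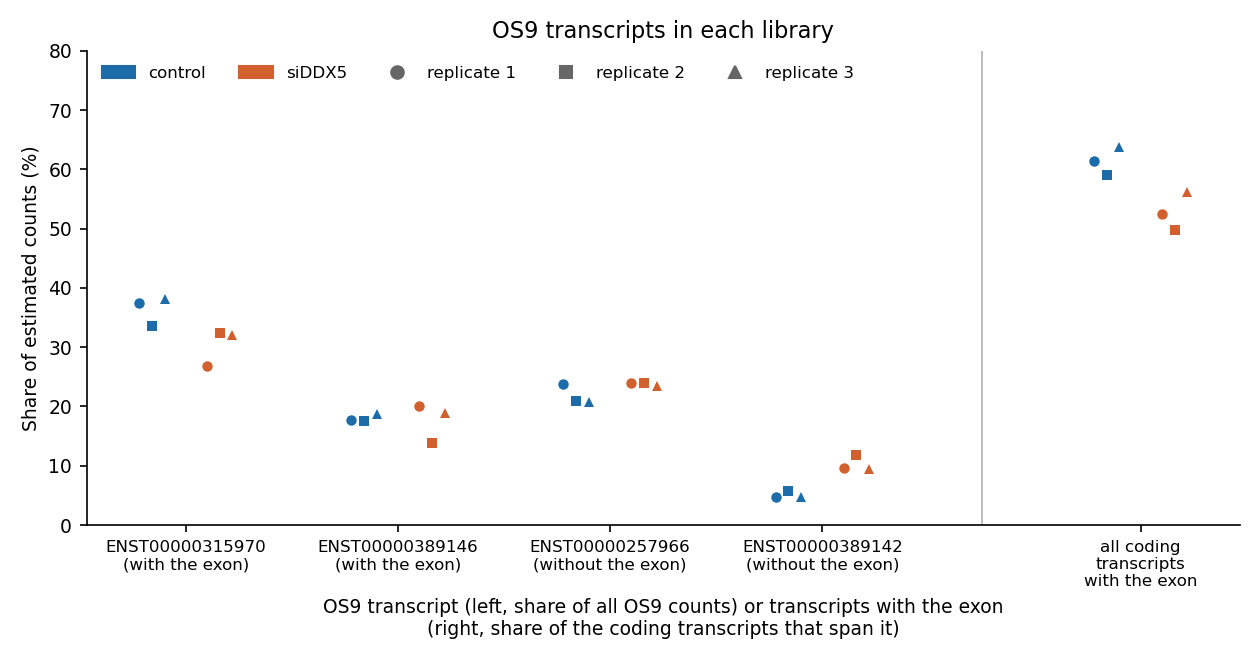
Share of the estimated counts of OS9 on its 4 main coding transcripts, in percent of all OS9 counts (left), and on all coding transcripts with exon 13, in percent of the coding transcripts that span it (right), with 1 point per library. ENST00000389142 is near 5% in the control and at 9.44% or more in the siDDX5 libraries.

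The pathways in which the 10 genes act were followed through lists of partner and related genes. The lists were chosen with earlier results of these data known, so a called gene in a list is a description only. Each count is to be read beside the 0.171% of all genes that were called and the 11.3% at an unadjusted p under 0.05. Of 20 genes of the CDK4 and retinoblastoma pathway, 0 were called by edgeR and 4 had an unadjusted p under 0.05 (11.3% of all genes). The smallest p-values were those of RBL2, the retinoblastoma relative p130 (log2 fold change -0.34, adjusted p = 0.257), and E2F2 (-0.41, adjusted p = 0.274). CDK6, the kinase that shares the D-type cyclins with CDK4, was at 105.6, 84.1 and 112.0 TPM in the control and 156.1, 105.3 and 112.5 TPM in the siDDX5 libraries. It is named after its values were seen, and its adjusted p was 0.318. Of 16 Hedgehog genes, 13 were tested, 0 were called and 0 had an unadjusted p under 0.05, with the smallest p for STK36 (-0.35, adjusted p = 0.501) and SUFU (0.19, adjusted p = 0.565).

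Of 11 partners of OS9 in endoplasmic reticulum degradation, 0 were called and 0 reached an unadjusted p under 0.05. SYVN1, the ubiquitin ligase HRD1, was at -0.26 (adjusted p = 0.453) and the chaperone HSP90B1 at 0.27 (adjusted p = 0.476). Of 7 tested genes of ganglioside synthesis around B4GALNT1, 0 were called and 2 had an unadjusted p under 0.05: UGCG, which makes glucosylceramide (0.32, adjusted p = 0.318), and B4GALT6, a lactosylceramide synthase (-0.47, adjusted p = 0.348). Of 10 partners of AGAP2, 0 were called and 2 had an unadjusted p under 0.05, AKT1 (-0.58, adjusted p = 0.111) and PIK3CA (-0.26, adjusted p = 0.44). AKT1 was called with the replicate block, at -0.57 (adjusted p = 0.0145).

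The list of tRNA and translation genes set beside METTL1 and TSFM held a called gene, TRMT112, the shared partner of several methyltransferases. A link of TRMT112 to METTL1 or TSFM was not tested. TRMT112 fell from 115.7, 123.6 and 108.3 TPM to 57.2, 69.4 and 63.8 TPM, with no overlap (log2 fold change -0.90, SE 0.13, edgeR adjusted p = 0.0426). It was the 1 called gene of 10. Of 5 tested relatives of AVIL, 0 were called and 1 had an unadjusted p under 0.05, with GSN, gelsolin, at -0.44 (adjusted p = 0.375) and SCIN at 0.30 (adjusted p = 0.578). Of 10 tetraspanins besides TSPAN31, 0 were called and 1 had an unadjusted p under 0.05, with TSPAN4 at -0.47 (adjusted p = 0.292) and TSPAN14 at 0.29 (adjusted p = 0.465).

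Around CYP27B1, 5 of 8 genes of vitamin D metabolism were tested, with 0 called and 3 at an unadjusted p under 0.05, beside 11.3% of all genes. RXRA, the partner receptor of the vitamin D receptor, was at -0.49 (adjusted p = 0.143) and the 25-hydroxylase CYP2R1 at -0.64 (adjusted p = 0.229). RXRA was called with the replicate block, at -0.48 (adjusted p = 0.0368). The receptor itself, VDR, was at 0 to 0.0456 TPM, and CYP24A1, a target of the receptor that degrades the active hormone, at 0 to 0.355 TPM. VDR and CYP24A1 are named after their values were seen. Farther along the chromosome, in 12q14-q15, 8 of 9 genes were tested and 1 was called, in a list likewise chosen with earlier results known. HMGA2, an architectural chromatin protein, rose from 18.6, 22.2 and 18.2 TPM to 34.0, 35.3 and 28.0 TPM (log2 fold change 0.98, SE 0.14, edgeR adjusted p = 0.0426).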

How the data were processed

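RNA of 6 Rh30 libraries, 3 control and 3 siDDX5, was analysed, with groups and replicate numbers from the sample titles. Per the submitters' processing notes, the authors used bcl2fastq 2.20, FastQC 0.11.8, cutadapt 1.11 and kallisto 0.46.0, with the builds GRCh38 and hg38. The annotation and the strand setting of the quantifier are not given in the sources used here. The deposited tables give an estimated count and a TPM value per transcript. The authors' estimated counts were not normalized, and the authors' TPM values are scaled for effective length and to 1000000 per library.

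Of 188753 transcripts, 169797 (90.0%) were joined to GENCODE release 29 by identifier without version and 15322 by gene symbol, while 3634 were left out. The joined transcripts held 99.26% to 99.32% of the counts. The counts were added up per gene, rounded, filtered with filterByExpr, scaled with TMM and tested with glmQLFTest of edgeR 4.0.16 in R 4.3.3. The model had the group alone, with Benjamini-Hochberg adjustment over all genes. Transcripts were tested likewise, and transcript usage with diffSpliceDGE. The fits were also run on simulated counts with a fixed dispersion and no pairing by replicate number. That run does not tell how they behave on libraries that deviate together, as these did.

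The correlation of the deviations of same-numbered libraries from their group means was 0.21, 0.27 and 0.56 over 15204 genes. Since each was above 0.1, the titles' numbers were taken to pair the libraries, and the blocked value is given where it changes a call.

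Alternatives were DESeq2 1.42.0 (size factors and Wald test), other filters, counts from length-scaled TPM, limma-trend (limma 3.58.1) on log2(TPM + 1) and log2(TPM + 0.1), the block, the join by identifier only, and leaving out each library. Leaving out both libraries of a replicate number was added after seeing the data. The 10 genes and the lists were chosen with earlier results of these data known. Named besides them were every called gene and the 5 most abundant genes between them, every called gene within 1 Mb and the nearest gene of at least 1 TPM on each side, the 5 genes most like CDK4, DDX5, and from each list up to 3 called genes or else the 2 with the smallest p.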

Additional observations from a re-analysis of the deposited data

How the results depend on the processing

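With DDX5 knockdown tested 18 other ways, the number of the 10 genes called was 0 in 17 of them and 1 with the replicate block, where B4GALNT1 was called (-0.47, adjusted p = 0.0274). The adjusted p of B4GALNT1 ranged from 0.0274 to 0.741 over the alternatives. The number of genes between them that were called was 0 in all 18. The block changed no call among the other 9 genes, their transcripts or their transcript usage.

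The number of genes called overall varied, and the cause was not tested. It was 26 as reported, 302 by the Wald test of DESeq2, 129 when no filter was applied, 2 with length-scaled TPM counts, 1 with limma-trend on either log2(TPM + 1) or log2(TPM + 0.1) and 377 with the replicate block. It was 0 to 16 when single libraries were left out. The count of 0 came without control replicate 1 (1242 genes at an unadjusted p under 0.05 in edgeR) and without siDDX5 replicate 1 (2036 genes). Without both replicate 1 libraries it was 0 (1427 genes at an unadjusted p under 0.05), without both replicate 2 libraries 1 and without both replicate 3 libraries 5. The number of the 10 genes with changed transcript usage was 0 to 1 when single libraries were left out, the 1 being OS9 without siDDX5 replicate 1.

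B4GALNT1, AGAP2 and METTL1 kept the sign of their log2 fold change in all 18 settings. The other 7 genes changed sign in at least 1. Over the single libraries left out, the lowest and highest values were -0.03 and 0.26 for CDK4, -0.08 and 0.24 for TSPAN31, -0.17 and 0.08 for OS9, -0.55 and 0.04 for GLI1, 0.00 and 0.22 for TSFM, -0.09 and 0.01 for AVIL, and -0.13 and 0.19 for CYP27B1. OS9 was at 0.08 without control replicate 1 and at 0.08 without both replicate 1 libraries. CYP27B1 was at 0.19 without control replicate 2, 0.01 without siDDX5 replicate 1, 0.07 without siDDX5 replicate 3 and 0.07 without both replicate 2 libraries. TSPAN31 was at -0.02 without control replicate 3 and AVIL at 0.01 without siDDX5 replicate 1. Without siDDX5 replicate 2, CDK4 was at -0.03, TSPAN31 at -0.08, GLI1 at 0.04 and TSFM at 0.00, and without both replicate 2 libraries CDK4 was at -0.03. The lowest count of any of the 10 genes in a library was 1593, for GLI1.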
